A study of Mus musculus with 2 samples.

Results

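The genes described here are 4 *Dlx* homeobox genes of the embryonic mouse forebrain, *Dlx1*, *Dlx2*, *Dlx5* and *Dlx6*, and the long non-coding RNAs transcribed on the opposite strand at the same places, *Dlx1as* and *Dlx6os1*. They were taken by name, 6 of the 32285 genes counted, and each symbol had 1 row in both embryos. Single-cell RNA libraries came from the cortex of 2 mouse embryos at embryonic day 16.5, 1 library per embryo. Both were wild-type controls of the Eomes-Cre line, titled EoMltt3, of C57BL6/J background per the study's methods, and are called embryo 4 and embryo 5 after the numbers in their titles. With a single genotype, age and treatment, the comparisons are between cell classes, and n = 2 embryos throughout. The tissue was dissociated with papain and the libraries counted unique molecular identifiers (UMIs), which mark single captured RNA molecules at their 3′ ends. The tissue field of the labels names brain hemispheres and the protocol names the cortex.

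Dlx proteins are homeodomain transcription factors made in the ganglionic eminences of the ventral forebrain, where they drive precursors toward a GABAergic fate and later the migration of interneurons. The genes lie in convergently transcribed pairs that share enhancers, *Dlx1* with *Dlx2* and *Dlx5* with *Dlx6*. Their order of action is known from mouse genetics: *Gsx2* acts upstream in progenitors, *Dlx1* and *Dlx2* start there and *Dlx5* and *Dlx6* follow. *Dlx6os1*, also called Evf2, regulates transcription at the *Dlx5* and *Dlx6* enhancers, and *Dlx1as* is the antisense transcript of *Dlx1*. Interneurons of the medial ganglionic eminence (MGE) include the somatostatin and parvalbumin cells, those of the caudal eminence (CGE) the serotonin receptor 3A cells, and the lateral eminence (LGE) mainly gives striatal and olfactory neurons.

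In RefSeq's GRCm38.p6 annotation *Dlx1* lies at chr2:71528113-71533981 on the plus strand and *Dlx1as* at chr2:71530638-71537891 on the minus strand, so that 3344 bases of the pair overlap. *Dlx2*, at chr2:71543408-71546754 on the minus strand, begins 5516 bases beyond *Dlx1as*. On the other cluster *Dlx6os1* spans 51085 bases, chr6:6820543-6871627 on the minus strand, and covers all 4637 bases of *Dlx6*, which lies at chr6:6863334-6867970 on the plus strand. *Dlx5*, at chr6:6877801-6882068 on the minus strand, lies 6173 bases further on. The genome build of the files is mm10, the same major build. Whether reads in introns were counted is not given in the sources used here, and reads in the shared stretches could only be assigned by strand, so the values of each overlapping pair are less certain than those of *Dlx2* and *Dlx5*.

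Promoter sequences from RefSeq (GRCm38.p6) were at hand for 3 of the 6 genes, *Dlx1*, *Dlx2* and *Dlx6os1*, and 3 windows of 250 bases upstream of a transcript start are shown because *Dlx2* had its highest level in the cycling GABAergic cells and *Dlx6os1* in the CGE-like cells described below. The *Dlx2* window is chr2:71546755-71547004, and those of *Dlx6os1* are chr6:6861684-6861933 and chr6:6869534-6869783, which precede different starts inside the long gene. All are printed 5′ to 3′ on the minus strand, with each TAATTA, a palindromic homeodomain core, in capitals.
Dlx2: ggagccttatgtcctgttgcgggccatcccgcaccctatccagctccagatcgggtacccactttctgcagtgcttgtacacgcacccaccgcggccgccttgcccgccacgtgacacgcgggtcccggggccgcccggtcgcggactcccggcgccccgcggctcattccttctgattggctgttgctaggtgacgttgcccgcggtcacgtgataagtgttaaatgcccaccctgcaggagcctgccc
Dlx6os1, window chr6:6861684-6861933: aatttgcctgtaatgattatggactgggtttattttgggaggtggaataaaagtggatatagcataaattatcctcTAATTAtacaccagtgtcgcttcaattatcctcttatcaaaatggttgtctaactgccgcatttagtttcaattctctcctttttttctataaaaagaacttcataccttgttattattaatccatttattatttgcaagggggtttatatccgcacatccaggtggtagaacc
Dlx6os1, window chr6:6869534-6869783: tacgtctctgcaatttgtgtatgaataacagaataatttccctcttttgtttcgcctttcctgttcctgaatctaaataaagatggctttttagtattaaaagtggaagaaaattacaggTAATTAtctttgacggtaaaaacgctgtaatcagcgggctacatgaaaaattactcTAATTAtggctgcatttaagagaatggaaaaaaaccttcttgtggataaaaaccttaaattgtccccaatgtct

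The windows of *Dlx6os1* held 1 and 2 copies of TAATTA and 34.0% and 33.2% G or C, while the *Dlx2* window held none and was 66.4% G or C. Of 32851 mouse promoter windows of the same length, 4.84% held TAATTA. That share was not matched for G or C content, and TAATTA consists of A and T only, so it is no base rate for the *Dlx6os1* windows. The *Dlx1* window (68.0% G or C) held none either, and CAGCTG, an E-box motif, was in none of the 4 windows and in 13% of all promoter windows. Both motifs are palindromes, so 1 search covers both strands. A match in such a window is a match of letters and no evidence of binding.

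After filters on genes, mitochondrial counts and doublets, 9932 cells of embryo 4 and 10416 of embryo 5 were kept, and 26 barcodes occurred in the kept cells of both. Clusters were formed with the *Dlx* genes, their known pathway genes and *Sst* left out, and were named from marker genes. The GABAergic cells were 676 and 649 MGE-like, 363 and 420 CGE-like, 423 and 271 LGE-type-like and 146 and 203 cycling GABAergic-like cells in embryos 4 and 5. Levels are in CPM, a gene's UMIs summed over the cells of an embryo and class and scaled by the total UMIs of that sum, and the total behind a GABAergic sum ran from 1362854 to 4586219 UMIs. Intervals on levels, shares and ratios are exact 95% intervals and cover counting error only.

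The class labels were checked against their markers. *Lhx6*, which defines the MGE lineage, was at 263 and 280 CPM in MGE-like cells and at 0.996 and 0 CPM in CGE-like cells. *Adarb2*, a CGE marker, was at 5478 and 5520.2 CPM in CGE-like cells, most of the 6118 and 5990 CPM of the 8 CGE markers. It was also at 1411 and 1170 CPM in LGE-type-like cells. *Nr2f2*, *Sp8*, *Prox1* and *Htr3a* were highest in CGE-like cells too. *Npas1* was higher in MGE-like (85.3 and 86.9 CPM) than in CGE-like cells (47.8 and 43.3 CPM). *Calb2* was highest in LGE-type-like cells, and *Vip* had no UMI in the GABAergic classes. The LGE-type name was less clean. The 15 LGE-type markers summed to 4064 and 6599 CPM in LGE-type-like cells, all 15 with a UMI, but to 4953 and 6636 CPM in CGE-like cells, which were high in *Meis2* and *Pbx3*. *Pbx3*, *Foxp2* and *Tshz1* were higher in CGE-like than in LGE-type-like cells in both embryos, while *Foxp1*, *Isl1*, *Ebf1* and *Six3*, among others, were lower. The CGE-like name therefore does not settle the origin of those cells. The LGE-type-like cells also carried MGE-lineage genes, *Lhx6* at 65.2 and 17.3 CPM, *Lhx8* at 106 and 30.5 CPM and *Nkx2-1* at 52.2 and 9.84 CPM. Cycling GABAergic-like cells held 2737 and 1840.0 CPM of the 9 radial glia markers, against 261 to 721 CPM in the other GABAergic classes. The part of these marker levels in the *Dlx* results was not tested.

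All 6 genes were concentrated in the GABAergic cells. Those classes held 1608 of the 9932 kept cells of embryo 4 and 1543 of the 10416 of embryo 5, but between 90.5% and 97.8% of each gene's UMIs, the least for *Dlx1as* in embryo 4 and the most for *Dlx6os1* in embryo 5. Over all kept cells *Dlx6os1* gave 26982 UMIs, *Dlx1* 8003, *Dlx1as* 4691, *Dlx5* 3352, *Dlx2* 3174 and *Dlx6* 1233. As 3′ tags are neither scaled by length nor captured alike between genes, differences between genes are given only as ratios compared between classes.

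In the immature, upper-layer and deep-layer excitatory neurons, which should lack these transcripts, the levels of the 6 genes, with these classes pooled, were between 0.148 and 4.2 CPM. Free RNA, missed doublets and misplaced cells cannot be told apart there, and these levels serve as the background. *Dlx1* stood at 2.33 CPM there in embryo 4 and 1.40 in embryo 5, and its level in CGE-like cells was 227-fold and 357-fold higher. The same ratio for *Dlx6os1* was 450-fold and 1270-fold. The smallest ratio of any of the 6 genes in any GABAergic class was that of *Dlx1as* in LGE-type-like cells, 36-fold and 40.3-fold. The other family members were all but absent: *Dlx3* had 1 UMI in an RGC-like cell and 1 in an unnamed cluster, and *Dlx4* 1 UMI, in a pericyte-like cell. Neither had a UMI in a GABAergic class. With 3 counts taken as what 0 UMIs allow, a floor and not an exact interval, the MGE-like sums allow up to 0.654 and 0.695 CPM.

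**Figure D1:**
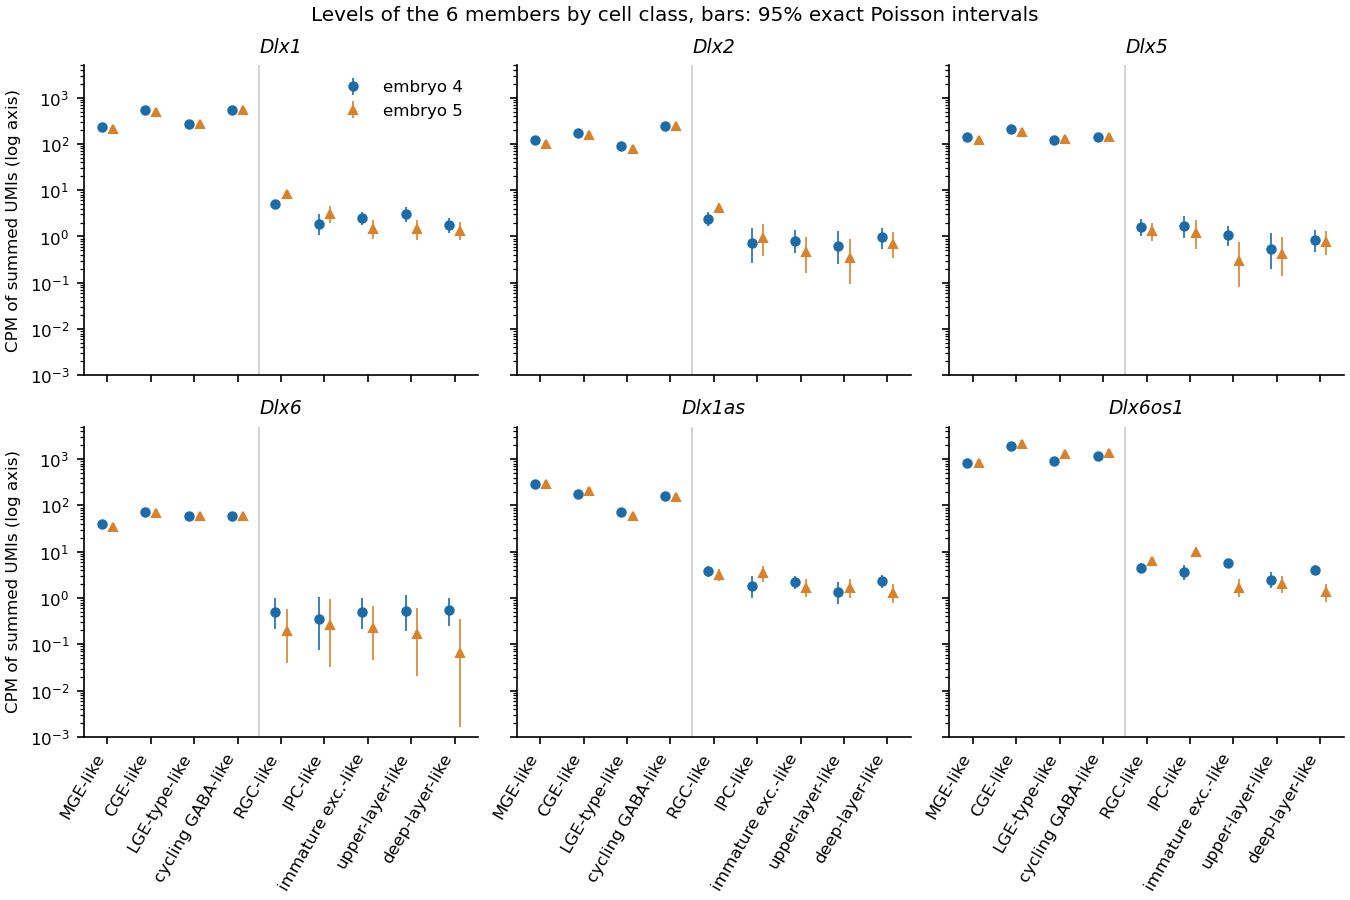
Level of each gene (CPM, log axis) in 9 cell classes, with embryo 4 as circles and embryo 5 as triangles and bars for 95% Poisson intervals. The 4 GABAergic classes left of the grey line sit between 34.8 and 2099.6 CPM, and the highest level of the other classes is 10.0 CPM.

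*Dlx2* was highest in the cycling GABAergic-like cells, and *Dlx1* was high in them and in CGE-like cells. *Dlx1* stood in cycling cells at 537 CPM in embryo 4 and 540.4 CPM in embryo 5 (539 ± 2.33, SD, n = 2), close to the 528 and 500.5 CPM of CGE-like cells (514 ± 19.3). LGE-type-like cells had 267 CPM in both embryos and MGE-like cells 235 and 215 CPM. The classes thus fell into a high pair and a low pair for *Dlx1*, and no value of one pair overlapped the other. *Dlx2* stood at 249 and 245 CPM in cycling cells, 172 and 153 CPM in CGE-like, 121 and 99.7 CPM in MGE-like and 90.9 and 77.8 CPM in LGE-type-like cells. Its order put the cycling cells clear of all others and MGE-like above LGE-type-like cells.

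*Dlx5* and *Dlx6* differed less between the classes and were not highest in cycling cells. *Dlx5* was at 207 and 179 CPM in CGE-like cells, above 142 and 121 CPM in MGE-like, 138 and 144 CPM in cycling and 119.9 and 126 CPM in LGE-type-like cells, and the MGE-like range overlapped both of the others. *Dlx6* was the scarcest, at 71.7 and 68.6 CPM in CGE-like cells, 59.0 and 59.5 CPM in LGE-type-like, 58.0 and 58.3 CPM in cycling and 39.7 and 34.8 CPM in MGE-like cells. For *Dlx6* the MGE-like cells were the low class, and LGE-type-like and cycling cells differed by less than their counting intervals.

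The antisense RNAs had opposite extremes. *Dlx1as* was highest in MGE-like cells, at 288 and 290.5 CPM, against 181 and 202 CPM in CGE-like cells. Cycling cells had 157 and 155 CPM and LGE-type-like cells 73.1 and 60.5 CPM, and the embryo values of no classes overlapped. The counting intervals of CGE-like (163 to 200 CPM) and cycling cells (137 to 180 CPM) did overlap in embryo 4. *Dlx6os1* was lowest in MGE-like cells, at 842 and 845 CPM, and highest in CGE-like cells, at 1891 and 2099.6 CPM. Its 931 and 1265 CPM in LGE-type-like and 1148 and 1392 CPM in cycling cells overlapped each other. Embryos differed most in *Dlx6os1*, whose SD in LGE-type-like cells was 236 CPM.

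The comparison of MGE-like with CGE-like cells asks whether these postmitotic classes, whose origins are named from markers only, keep the same *Dlx* output. Of the 6 genes, 1 was higher in MGE-like cells and 4 were lower (edgeR's quasi-likelihood test, Benjamini-Hochberg adjusted over 15329 genes), where 8% of all genes tested were higher and 7.52% lower. *Dlx1as* was the higher one, by 0.73 on the log2 scale (SE 0.17, edgeR adjusted p = 0.00254). *Dlx1* differed by -1.05 (SE 0.19, edgeR adjusted p = 0.000158), and *Dlx6os1* by -1.10 (SE 0.28, edgeR adjusted p = 0.00698). The changes of *Dlx6*, -0.77 (SE 0.21), and *Dlx5*, -0.40 (SE 0.13), had edgeR adjusted p of 0.0100 and 0.0409, and *Dlx2* at -0.41 (SE 0.16) did not pass, at 0.0894. The median of the 6 log2 differences was -0.59, beside 0.04 for all genes. With finer clusters the *Dlx1as* difference fell to 0.34 and was no longer called (edgeR adjusted p = 0.214), with doublets kept it was 0.43 (edgeR adjusted p = 0.0985), and DESeq2 did not call *Dlx6os1* (adjusted p = 0.498).

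Against LGE-type-like cells, *Dlx1as* and *Dlx2* were the genes of the 6 that were higher in MGE-like cells and none was lower, where 9.15% of all genes were higher and 11.6% lower. *Dlx1as* differed by 2.23 on the log2 scale (SE 0.18, edgeR adjusted p = 3.62e-10), and *Dlx2* by 0.51 (SE 0.17, edgeR adjusted p = 0.0299). *Dlx1* (-0.11), *Dlx5* (0.24), *Dlx6* (-0.53) and *Dlx6os1* (-0.24) did not pass, with edgeR adjusted p from 0.0666 to 0.748, though *Dlx6* was called in 9 of 10 other settings tested, with the embryo as a replicate block among them (edgeR adjusted p = 0.0226). The calls changed with the clustering: with finer clusters *Dlx1* was lower in MGE-like cells by -0.69 (edgeR adjusted p = 0.00604), and *Dlx2* turned to -0.12.

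CGE-like cells exceeded LGE-type-like cells in 5 of the 6 genes, with none lower, where 5.7% of all genes were higher and 9.07% lower. *Dlx1as* rose by 1.5 (SE 0.19, edgeR adjusted p = 2.34e-06), *Dlx1* by 0.94 (SE 0.19, edgeR adjusted p = 0.000757) and *Dlx2* by 0.93 (SE 0.17, edgeR adjusted p = 0.000385). *Dlx5* rose by 0.65 (SE 0.14) and *Dlx6os1* by 0.86 (SE 0.28), with edgeR adjusted p of 0.00183 and 0.0388. *Dlx6*, at 0.24 (SE 0.20), did not pass (edgeR adjusted p = 0.508). The median difference was 0.89, beside -0.01 for all genes. DESeq2 called 3 of the 6, without *Dlx1* and *Dlx6os1*, and finer clusters also left 3.

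**Figure D2:**
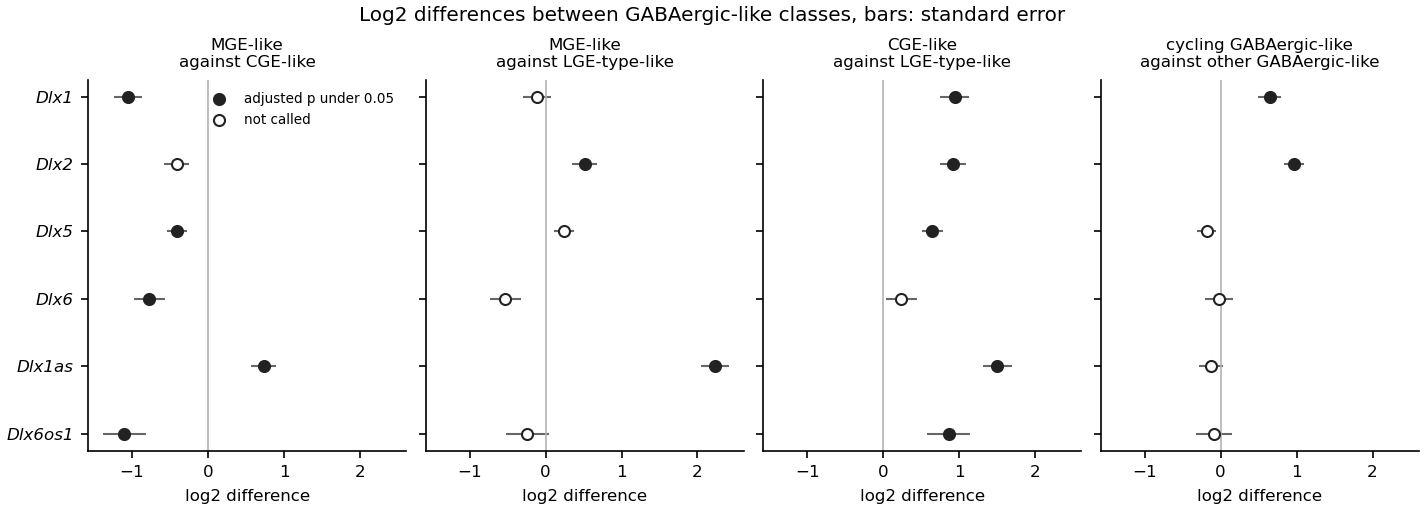
Log2 difference of each gene (x axis) in 4 comparisons between GABAergic classes, with bars for the standard error and filled points for an edgeR adjusted p under 0.05. *Dlx1as* lies right of 0 where MGE-like cells are compared, from 0.73 to 2.23, while *Dlx1* reaches -1.05 against CGE-like cells.

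Put as a ratio within each sum, where library size and total RNA cancel, *Dlx1as* over *Dlx1* was higher in MGE-like cells than in the other GABAergic classes. As capture differs between genes, the ratio does not show which RNA is more abundant in a cell. In MGE-like cells 1321 UMIs of *Dlx1as* faced 1076 of *Dlx1* in embryo 4, a ratio of 1.23 with an interval of 1.13 to 1.33, and in embryo 5 the ratio was 1.35 (1.24 to 1.47). In CGE-like cells it was 0.342 (0.303 to 0.386) and 0.404 (0.362 to 0.450), in LGE-type-like cells 0.274 and 0.227, and in cycling cells 0.292 and 0.287. The mean MGE-like ratio was 3.46 times the mean CGE-like ratio. No interval of the MGE-like cells reached those of another GABAergic class, in either embryo. With 2 embryos no permutation test of a ratio can pass a threshold, and none was run.

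The ratio of *Dlx6os1* to *Dlx6* was 21.2 and 24.3 in MGE-like cells, 26.4 and 30.6 in CGE-like, 15.8 and 21.3 in LGE-type-like and 19.8 and 23.9 in cycling cells. The CGE-like ratios were the highest in both embryos, but in embryo 4 their interval (22.3 to 31.4) overlapped that of MGE-like cells (18.3 to 24.8). The balance of both antisense RNAs separated the MGE-like cells again, with 2.92 and 2.91 UMIs of *Dlx6os1* per UMI of *Dlx1as*. Cycling cells were nearest, at 7.31 and 8.97, before 10.5 and 10.4 in CGE-like cells and 12.7 and 20.9 in LGE-type-like cells. Among the coding genes, *Dlx2* per *Dlx1* was 0.517 and 0.464 in MGE-like and 0.463 and 0.454 in cycling cells, above the 0.326 and 0.306 of CGE-like and the 0.341 and 0.292 of LGE-type-like cells. *Dlx6* per *Dlx5* was lowest in MGE-like cells, at 0.280 and 0.286, and highest in LGE-type-like cells, at 0.492 and 0.474.

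**Figure D3:**
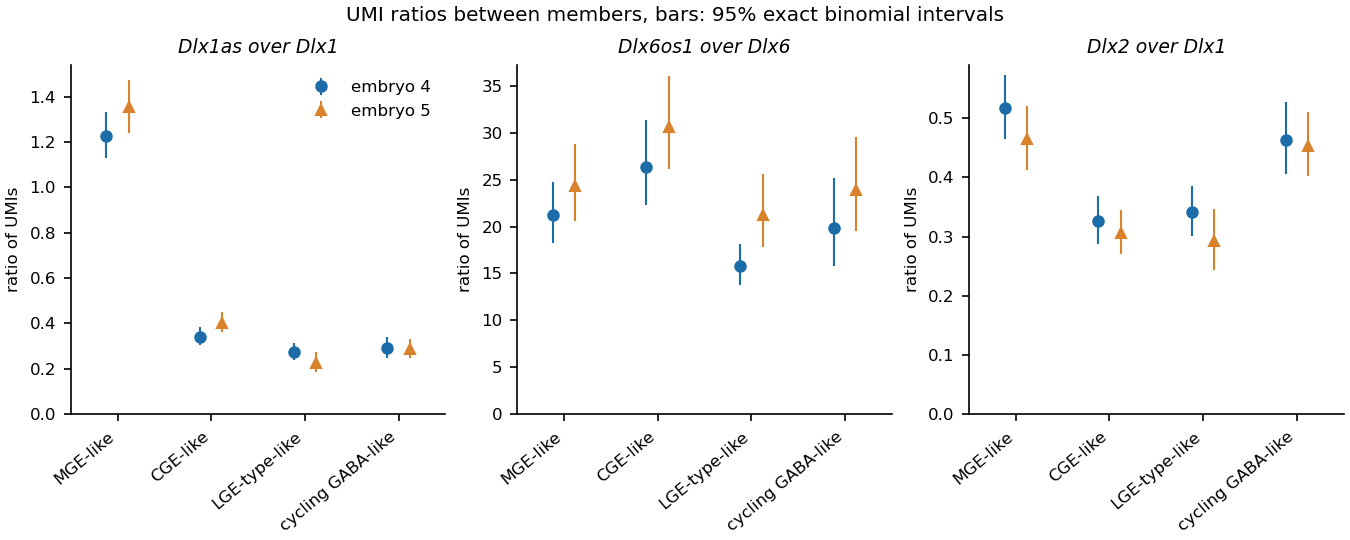
Ratios of UMIs (y axis, from 0) in the 4 GABAergic classes for *Dlx1as* over *Dlx1*, *Dlx6os1* over *Dlx6* and *Dlx2* over *Dlx1*, with embryo 4 as circles, embryo 5 as triangles and 95% intervals. In the first panel MGE-like cells stand at 1.23 and 1.35 and the other classes at 0.404 or below.

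The GABAergic cells were also split into finer clusters. MGE-like cells fell into a cluster led by *Nxph1* and *Maf*, of 360 and 317 cells with *Sst* at 367 and 329 CPM, and one led by *Neto1* and *Nxph1*, of 314 and 333 cells with *Sst* at 1007 and 1217 CPM. *Dlx5* was at 197 and 163 CPM in the first and 98.6 and 90.6 CPM in the second, and *Dlx6os1* at 1055 and 1053 CPM against 673 and 691 CPM. *Dlx1as* stayed close, at 311 and 287 CPM and at 271 and 293 CPM, and its ratio to *Dlx1* was 1.19 in the first cluster and 1.38 in the second.

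The CGE-like cells fell mainly into a cluster rich in *Meis2* (2671 and 3805 CPM; led by *Adarb2* and *Pbx3*) and a small one poor in it (414 and 100.3 CPM; *Adarb2* and *Nr3c2*). *Dlx6os1* stood at 2114 and 2304 CPM in the first and 1903 and 2072 CPM in the second, higher in the *Meis2*-rich cluster in each embryo. *Dlx1* was at 511 and 492 CPM and at 469 and 473 CPM, and the *Dlx1as* to *Dlx1* ratios were 0.40 and 0.436.

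The LGE-type-like class was split between names. Of its 694 cells, 511 went to a cluster named LGE-type-like at the finer resolution too, and led by *Zfhx3* and *Isl1*, with *Dlx1* at 359 and 315 CPM and *Dlx6os1* at 1268 and 1604 CPM. Of the rest, 163 went to clusters named MGE-like there, 162 of them to one led by *Snhg11*, *Cntn4* and *Nts*. That cluster, of 123 and 48 cells, had the lowest *Dlx* levels of the GABAergic clusters, *Dlx1* at 85.9 and 77.5 CPM, *Dlx2* at 29.1 and 17.8 CPM and *Dlx6os1* at 392 and 250.1 CPM, with *Sst* at 561 and 1138 CPM. Its *Dlx1as* to *Dlx1* ratio was 0.503, nearer to the non-MGE classes than to the other MGE-like clusters. In the *Isl1*-led cluster the ratio was 0.226. Of the 349 cycling GABAergic-like cells, 262 stayed in the cycling class and 87 went to an unnamed cluster.

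**Figure D4:**
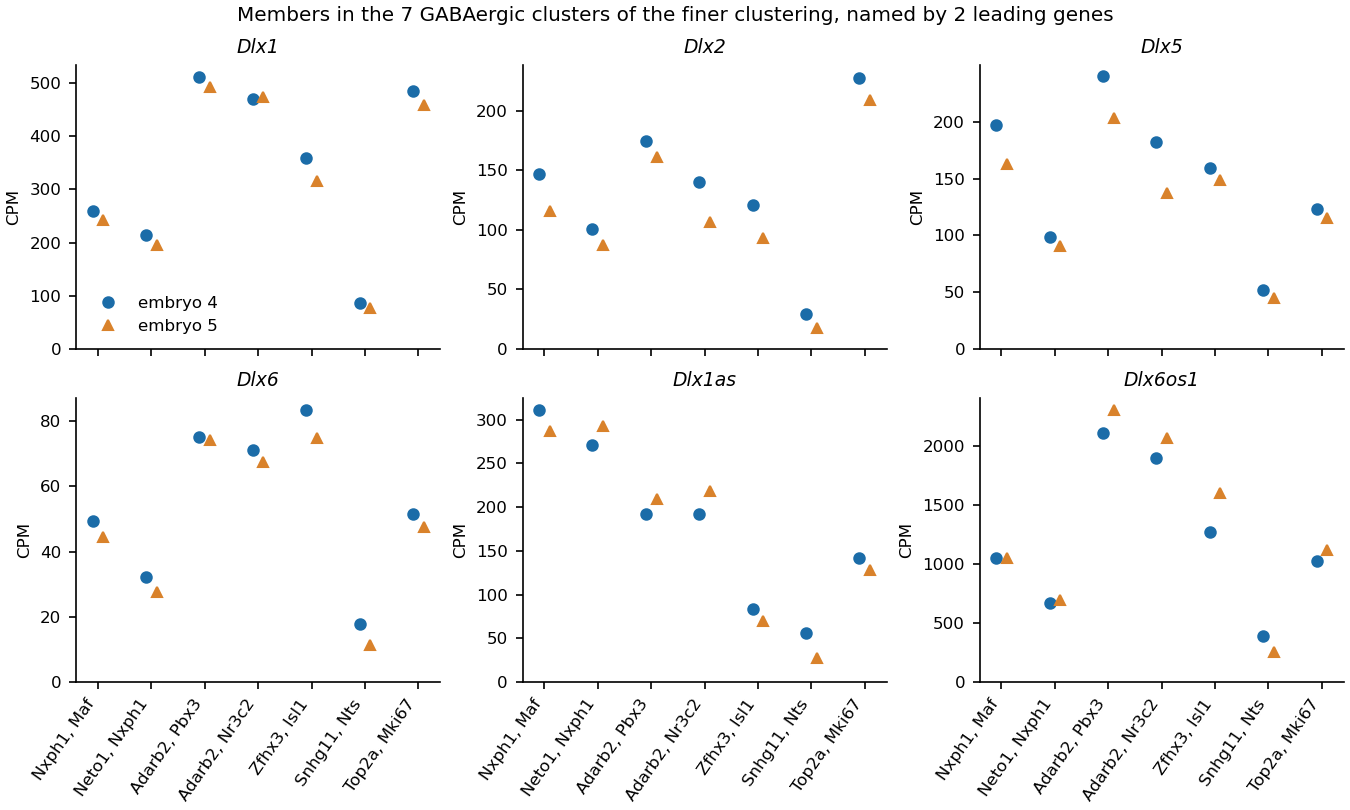
Level of each gene (CPM, y axis from 0) in 7 GABAergic clusters at the finer resolution, named on the x axis by leading genes, with embryo 4 as circles and embryo 5 as triangles. *Dlx1as* is highest in the MGE-like clusters led by *Nxph1* or *Neto1*, at 271 to 311 CPM, and the *Snhg11* cluster, which bears the MGE-like name too, is lowest for every gene.

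Cycling GABAergic-like cells, marked by *Top2a* and *Mki67*, were set against the mean of the other GABAergic classes to ask how the genes divide between dividing precursors and postmitotic cells. The classes also differed in lineage markers. The 8 MGE markers summed to 432 and 504 CPM in cycling cells, against 8240 and 8327 CPM in MGE-like cells, which are part of the reference. The 8 CGE markers summed to 536 and 467 CPM, against 6118 and 5990 CPM in CGE-like cells. Division and lineage cannot be told apart in this comparison. *Dlx1* and *Dlx2* were higher in cycling cells and none of the 6 was lower, where 20.1% of all genes tested were higher and 28.2% lower. *Dlx2* rose by 0.96 on the log2 scale (SE 0.13, edgeR adjusted p = 1.37e-06), and *Dlx1* by 0.64 (SE 0.15, edgeR adjusted p = 0.000852), relative to a median of all genes of -0.22. For *Dlx1* the CGE-like level, 528 and 500.5 CPM, was close to the 537 and 540.4 CPM of cycling cells. *Dlx5* differed by -0.19 (SE 0.12), *Dlx6* by -0.02 (SE 0.19), *Dlx1as* by -0.13 (SE 0.16) and *Dlx6os1* by -0.09 (SE 0.23), with edgeR adjusted p from 0.227 to 0.967. The sign of each of these 4 turned under at least 2 other settings, while *Dlx1* and *Dlx2* were called in 8 of 8. *Dlx5* per *Dlx1* was 0.257 and 0.266 in cycling cells, below 0.357 to 0.605 in the other GABAergic classes. Over the same comparison the GABA synthesis and loading genes fell, *Gad1* by 2.03, *Gad2* by 1.13 and *Slc32a1*, the vesicular transporter, by 2.50 on the log2 scale.

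Outside the GABAergic cells, cortical progenitors were tested against the mean of the excitatory neuron classes. In radial glia-like (RGC-like) cells 4 of the 6 genes were higher and none lower, where 35.4% of all genes tested were higher and 34.8% lower. *Dlx2* was at 2.41 and 4.2 CPM, against 0.822 and 0.517 CPM in excitatory neurons, a log2 difference of 2.10 (SE 0.31, edgeR adjusted p = 1.91e-06). *Dlx1*, at 4.96 and 8.33 CPM, was higher by 1.56 (SE 0.27, edgeR adjusted p = 1.36e-05), and *Dlx5* (0.89) and *Dlx1as* (0.75) passed with edgeR adjusted p of 0.0185 and 0.0207. *Dlx6* (-0.19) and *Dlx6os1* (0.67) did not pass. Each of these levels lay below the gene's lowest level in a GABAergic class.

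A UMI of any of the 6 genes was found in 202 of 1405 RGC-like cells (14.4%) in embryo 4 and 152 of 1515 (10.0%) in embryo 5. In embryo 4, 17 of 1405 RGC-like cells had 3 or more UMIs of the 6 genes and held 27.0% of the class's *Dlx* UMIs, and in embryo 5, 21 of 1515 cells held 59.5%. *Gsx2*, the ventral progenitor factor, had a UMI in 5 and 6 of these cells, while 1.87% and 3.01% of the other RGC-like cells had one. The RGC-like *Dlx* signal thus came in part from a few cells with several UMIs each, and ventral progenitors, missed doublets and free RNA were not told apart.

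In intermediate progenitor-like (IPC-like) cells none of the 6 genes was called by edgeR, where 27.2% of all genes were higher and 27.8% lower. *Dlx6os1*, at 3.57 and 10.0 CPM, came nearest with a log2 difference of 1.03 (SE 0.44, edgeR adjusted p = 0.0505), and *Dlx5* followed with 0.92 (SE 0.41, edgeR adjusted p = 0.0578). At an unadjusted p under 0.05 edgeR counted 2 of the 6, and DESeq2 called 1. With the embryo as a replicate block *Dlx6os1* was called (edgeR adjusted p = 0.0441). In embryo 5, 3 of 882 cells held 61.5% of the *Dlx* UMIs of the class. With doublets kept, where no cycling GABAergic-like class formed, all 6 genes were called.

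Somatostatin cells, the interneurons the study is about, were compared within the MGE-like class by whether a cell had an *Sst* UMI. The 268 and 272 *Sst*+ cells were deeper than the 408 and 377 *Sst*-negative cells, with medians of 7936 and 7068 UMIs against 5372.5 and 5915, and the part of depth was not tested. *Dlx5* was at 118 and 95.9 CPM in *Sst*+ and 165 and 145 CPM in *Sst*-negative cells, and *Dlx6os1* at 718 and 717 CPM against 958 and 961 CPM. Both were lower in *Sst*+ cells in both embryos, without overlap. The test was a separate fit of 2 sums against 2 from the same embryos, not part of the fit of all classes. None of the 6 was higher and 2 were lower, where 3.26% of 10878 genes tested were higher and 1.53% lower. The log2 differences were -0.53 (SE 0.13, edgeR adjusted p = 0.0127) for *Dlx5* and -0.42 (SE 0.11, edgeR adjusted p = 0.0240) for *Dlx6os1*. *Dlx1* (-0.06), *Dlx2* (-0.17), *Dlx6* (-0.32) and *Dlx1as* (-0.02) did not pass, with edgeR adjusted p from 0.452 to 0.955. DESeq2 called 1 of the 6, and with doublets kept none was called.

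Cell by cell, most GABAergic neurons had a UMI of at least 1 of the 6 genes. Before thinning the share was 99.3% and 99.5% of MGE-like, 99.2% and 97.9% of CGE-like, 83.0% and 90.4% of LGE-type-like and 66.4% and 78.3% of cycling GABAergic-like cells. As depth differs between classes, each cell was thinned to 2000 UMIs, which left out 1 to 30 cells per GABAergic class and embryo. The thinned shares were 94.3% and 93.1%, 96.9% and 95.4%, 71.8% and 78.1%, and 60.4% and 72.8% in the same order. In excitatory neurons the thinned share was 0.788% to 2.63%, where median depths were 8012 to 12900.5 UMIs before thinning, against 4599 to 8471 UMIs in the GABAergic classes. RGC-like cells had 4.34% and 3.35%, above that background, and IPC-like cells 1.49% and 2.18%, within it.

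*Dlx6os1* alone was detected in 71.1% and 72.9% of thinned MGE-like and 88.3% and 88.2% of CGE-like cells. Of the GABAergic classes, the cycling class had the largest share of thinned cells with none of the genes, 39.6% and 27.2%. With all UMIs used, 19.2% and 15.3% of its cells had all 6 genes. That was more than the 9.64% and 5.95% of CGE-like and the 5.62% and 3.54% of MGE-like cells. Cycling cells were deeper, with medians of 7185.5 and 8471 UMIs against 4599 and 5552.5 in CGE-like cells. Thinned, the order against CGE-like cells turned. All 6 genes were found in 0% of thinned cycling cells in both embryos, against 1.14% and 0.256% of CGE-like cells. Thinned cycling cells with 5 of the genes made up 4.17% and 3.96%, against 5.41% and 4.62% in CGE-like cells.

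**Figure D5:**
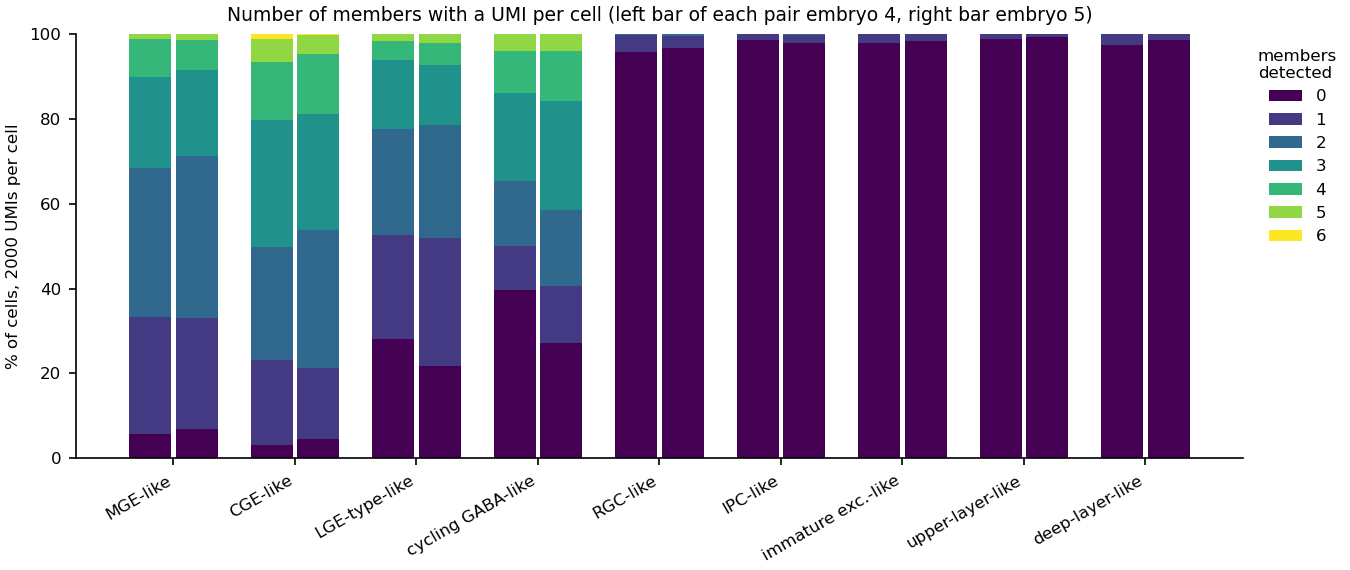
Share of cells (y axis, %) by the number of the 6 genes with a UMI, each cell thinned to 2000 UMIs, with embryo 4 as the left and embryo 5 as the right bar of each class. MGE-like and CGE-like cells without any of the genes make up 3.13% to 6.86%, and in the RGC-like, IPC-like and excitatory classes drawn they make up at least 95.7%.

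Sense and antisense RNAs of one place were compared within cells, as a description at the thinned depth. In MGE-like cells *Dlx1* was detected in 36.3% and 33.2% of the cells with *Dlx1as* and in 36.5% and 36.6% of the cells without it. In LGE-type-like cells those shares were 54.0% and 53.6% with, against 31.7% and 32.6% without, and in cycling cells 66.7% and 66.7% against 34.2% and 43.1%. In CGE-like cells they were 68.5% and 69.3% against 55.2% and 59.4%. The pattern was not particular to sense and antisense RNAs. *Dlx1* was detected in 37.2% and 38.5% of MGE-like cells with *Dlx2*, against 36.2% and 34.5% without it. In LGE-type-like cells those shares were 65.2% and 46.2% against 28.3% and 32.9%, and in cycling cells 58.7% and 70.6% against 31.6% and 36.6%. In CGE-like cells they were 69.6% and 70% against 53.4% and 59.7%. *Dlx6* was detected more often with *Dlx6os1* than without it, except in MGE-like cells of embryo 5. The differences between the classes were not tested.

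Of the upstream factors, *Gsx2* was highest where *Dlx2* was, in the cycling cells. *Gsx2* was at 58.0 and 45.7 CPM in cycling cells, 19.9 and 13.3 CPM in CGE-like, 5.95 and 2.81 CPM in LGE-type-like and 0.654 and 0.695 CPM in MGE-like cells. *Gsx1* had no UMI in MGE-like cells and 4.48 and 1.29 CPM in CGE-like cells. *Gsx2* was higher in cycling than in the other GABAergic cells, by 3.64 on the log2 scale (SE 0.32, edgeR adjusted p = 1.97e-09), and both genes were lower in MGE-like than in CGE-like cells. *Gsx2*, at 3.24 and 4.91 CPM in RGC-like cells, was also higher there than in excitatory neurons.

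Genes known to depend on Dlx factors were described from a list of 9: *Zeb2*, *Cxcr4*, *Ackr3*, *Erbb4*, *Sp9*, *Nrp2*, *Pak3*, *Grin2b* and *Vax1*. Between MGE-like and CGE-like cells, where 8% of all genes were higher and 7.52% lower, 4 were higher, 2 lower and 3 not called, with a median log2 difference of 0.76, beside 0.04 for all genes. *Ackr3*, a scavenging chemokine receptor of migrating interneurons, stood at 336 and 296 CPM against 27.9 and 24.4 CPM, and *Cxcr4*, the signalling receptor for the same ligand, at 51.5 and 31.8 CPM against 10.5 and 8.57 CPM. *Nrp2* and *Pak3* were the lower genes, by -1.12 (SE 0.22, edgeR adjusted p = 0.000516) and -0.82 (SE 0.14, edgeR adjusted p = 0.000119). *Nrp2* encodes a semaphorin receptor and *Pak3* a kinase acting on the cytoskeleton, and both are genes that Dlx factors are known to repress.

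Against LGE-type-like cells 5 of the 9 were higher in MGE-like cells and 2 lower, with a median of 0.72, and *Erbb4*, a neuregulin receptor, was at 13506 and 12862 CPM against 1350.3 and 879 CPM. In CGE-like against LGE-type-like cells 4 were higher and 1 lower, beside 5.7% and 9.07% of all genes. In cycling cells, where 20.1% of all genes were higher and 28.2% lower, 2 of the 9 were higher (*Vax1* and *Pak3*) and 4 lower, among them *Nrp2* at 2.2 and 3.61 CPM and *Erbb4* at 89.5 and 242 CPM. In RGC-like cells 2 were higher and 5 lower, beside 35.4% and 34.8% of all genes, and in IPC-like cells 1 and 4, beside 27.2% and 27.8%. In *Sst*+ against *Sst*-negative MGE-like cells none of the 9 was higher and 4 were lower, beside 3.26% and 1.53% of all genes: *Sp9*, *Nrp2*, *Zeb2* and *Ackr3*. *Sp9*, a zinc finger factor of ventral forebrain precursors, had the largest of these 4, -0.77 (SE 0.12, edgeR adjusted p = 0.000294).

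Across the 14 named classes, *Sp9* was the gene outside the set whose level was most like that of each of the 6, among 11635 genes with at least 20 CPM in some class. Pearson's r of log2(CPM + 10) with *Sp9* ran from 0.967 for *Dlx2* to 0.995 for *Dlx5*. *Gad2* was second for all 6, and the third place went to *Nrxn3* for *Dlx1*, *Dlx2* and *Dlx1as*, to *Gad1* for *Dlx5* and *Dlx6os1*, and to *B020031H02Rik* for *Dlx6*. The 6 genes correlated with each other at 0.940 to 0.993. These are descriptions over 14 points that share libraries and mostly contrast GABAergic with other classes.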

How the data were processed

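Cortex of 2 wild-type embryos was profiled with 10x Genomics 3′ v3.1 chemistry, 1 library each. The files deposited by the authors hold whole UMI counts for every gene in every barcode, made with Cell Ranger 7.0.0 per the submitters' notes on build mm10, while the matrix headers name 7.1.0. The counts are not normalized, so free RNA and unequal depth are still in them: embryo 4 had 12825 barcodes and 124318613 UMIs, embryo 5 12289 and 117679925.

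Barcodes with under 1000 detected genes (1772 and 765), over 10% mitochondrial counts (174 and 56) or a high doublet score after Scrublet's procedure (947 and 1052, at 0.8% per 1000 cells) were left out. Counts were clustered on 2000 variable genes, 30 principal components and 20 neighbours by Leiden at resolution 1 (Python 3.11.15 with scikit-learn 1.9.0, leidenalg 0.10.2 and scanpy 1.11.5). The members, the pathway genes, *Sst* and others named with them, 22 genes in all, were held out of clustering, naming and doublet scoring. Clusters were named "X-like" from their markers' CPM (10 CPM added) inside against outside the cluster, with a mean log2 ratio of at least 0.5, a margin of 0.25 and at least 3 markers detected in 10% of cells. Of 26 clusters 6 stayed unnamed.

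UMIs were summed per embryo and class and fitted for 14 classes (28 sums, 14 residual degrees of freedom) with edgeR 4.0.16 in R 4.3.3 (TMM, filterByExpr, quasi-likelihood test). The *Sst*+ against *Sst*-negative comparison had its own fit, of 2 sums against 2, with far fewer residual degrees of freedom. P-values were Benjamini-Hochberg adjusted over all genes tested, and an adjusted p under 0.05 was called. The SE is the size of the log2 difference over the square root of F. Both sums of a comparison come from the same 2 animals, and deviations of same-numbered sums correlated across genes at 0.0586 to 0.236 in 36 class pairs (median 0.102). The spread between embryos is all that these p-values measure. In the fit of 14 classes that spread was estimated over all classes, including small ones such as microglia-like cells (24 and 19 cells). The part of the small classes in the SE and p-values of GABAergic comparisons was not told apart. The fit was also run on simulated independent sums with 1 dispersion of 0.02 for every gene and 1 mean profile for all classes. Changes were planted in MGE-like cells and tested against CGE-like cells, with 14188 genes tested. Of genes changed 4-fold 87.9% were called, of those changed 2-fold 38.8% and of those changed 1.5-fold 5.97%, and 1 of 89 calls was false. The real sums are correlated and the classes differ in many genes, so these rates do not carry over to the reported tests. Alternatives were an embryo block, DESeq2 1.42.0 and its size factors, no count filter, GABAergic classes alone, 1500 genes, 5% mitochondrial counts, doublets kept, resolution 2, members allowed in the clustering and leaving out an embryo.

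The named genes are the 6 members, *Dlx3* and *Dlx4*, 2 upstream and 9 dependent pathway genes, 3 GABA genes, *Sst* and the 3 genes most like each member. Genes of these lists that were left out of the counts are not reported here. Members and lists were chosen with earlier results of these data known.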

Additional observations from a re-analysis of the deposited data

Results flagged for a closer look

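Members of the *Dlx* set were also found in data that no comparison used. Barcodes left out for having under 1000 detected genes held 414 UMIs of the 6 genes in embryo 4 and 141 in embryo 5, above the 3 counts that a count of 0 allows, and 13.3% and 10.6% of those barcodes had such a UMI. Their *Malat1* share, a sign of nuclear RNA, was 0.259% and 0.163% of UMIs, against 1.80% and 1.84% in kept cells.

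A cluster led by *Cck* and *Npy* that stayed unnamed, of 103 and 73 cells, held *Dlx1* at 167 CPM in embryo 4 and 99.4 CPM in embryo 5. *Dlx6os1* was at 130 and 49.7 CPM there, so that the ratio of *Dlx6os1* to *Dlx6* was 5.11 and 5.0 against 15.8 to 30.6 in the named GABAergic classes. *Sst* stood at 555 and 770.1 CPM. The *Malat1* share of this cluster was 0.0507% and 0.0268%, against 2.65% and 2.50% in MGE-like cells, and its median depth was 3387 and 2578 UMIs. The part of that low share in the antisense levels was not tested.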

How the results depend on the processing

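Of 462 log2 differences of the 6 genes over 12 alternatives, 374 kept their direction and side of the threshold or, with an embryo left out, stayed within the spread, 12 lost and 34 gained a call, 24 changed sign and 18 moved without a test. The number of the 6 genes called stayed within 1.5 times that reported for MGE-like against CGE-like, cycling and RGC-like cells. MGE-like against LGE-type-like gave 4 at resolution 2 (2 reported), and CGE-like against LGE-type-like gave 3 with DESeq2 and 3 at resolution 2 (5 reported). IPC-like cells gave 1 with the embryo as a replicate block, 1 without a count filter, 1 with DESeq2, 2 at 1500 genes, 3 at 5% mitochondrial counts, 6 with doublets kept and 1 at resolution 2 (0 reported). *Sst*+ cells gave 1 with DESeq2 and 0 with doublets kept (2 reported). The replicate block changed 2 of 42 calls of the 6 genes, both gained. The MGE-like over CGE-like ratio of *Dlx1as* to *Dlx1* (3.46) was 3.03 at resolution 2, 3.15 at 1500 genes, 2.94 at 5% mitochondrial counts, 2.99 with doublets kept and 3.13 with members in the clustering. The share of MGE-like cells with a member was 93.7% thinned and 99.4% unthinned.

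Sign changes, as log2 differences, fell mostly on values that were not called. For MGE-like against LGE-type-like cells they were *Dlx1* 0.0599 with members in the clustering and, at resolution 2, *Dlx2* -0.12, *Dlx5* -0.33 and *Sp9* -0.10, and for CGE-like against LGE-type-like *Dlx6* -0.0943 at resolution 2. For cycling cells, 5% mitochondrial counts gave *Dlx5* 0.0535, *Dlx6* 0.23, *Dlx1as* 0.11 and *Dlx6os1* 0.15, members in the clustering gave 0.12, 0.25, 0.15 and 0.16 in that order, no filter gave *Dlx6* 0.11 and *Dlx6os1* 0.042, and *Dlx6* was 0.0042 with DESeq2 size factors and 0.0040 with DESeq2. For RGC-like cells *Dlx6* was 0.0694 at 5% mitochondrial counts, 1.17 with doublets kept, 0.72 at resolution 2 and 0.87 with members in the clustering. For IPC-like cells *Dlx6* was 0.56 at 5% mitochondrial counts and 4.49 with doublets kept, *Ackr3* 0.0598 with doublets kept, and *Nrp2* 1.16 at 1500 genes, 0.12 at 5% mitochondrial counts and 0.39 at resolution 2. In *Sst*+ cells doublets kept gave *Dlx1* 0.0537 and *Dlx1as* 0.0891. The cause of these changes was not tested, except that with doublets kept no cycling GABAergic-like class formed, so that comparison could not be made. With an embryo left out each class has 1 sum, so only values without a test were given. Depth limits *Dlx6* most, with 5 to 11 UMIs in all outside the GABAergic classes for each of the IPC-like, upper-layer, deep-layer, immature and RGC-like classes.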

Other observations

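The small classes gave scattered values. In microglia-like cells *Dlx1* stood at 80.9 CPM in embryo 5, from 13 UMIs, and at 0 in embryo 4, and 1 of the 19 cells of embryo 5 held all 6 genes. In choroid plexus-like cells *Dlx1* was at 13.1 CPM in embryo 4, from 4 UMIs, and at 0 in embryo 5. Cajal-Retzius-like cells, early neurons of the marginal zone, had 1.08 and 0 CPM.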
